A study of Mus musculus with 4 samples.

Results

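Cycling cells were taken from all lineages of the stromal vascular fraction of mouse inguinal white fat, the mixture of non-adipocyte cells that is released when a fat pad is digested. They were chosen by raw counts: a cell was counted as cycling when UMIs (unique molecular identifiers, each standing for 1 captured transcript) of at least 3 of 10 cell cycle genes were detected in it: Mki67, Top2a, Cdk1, Ccnb1, Ccnb2, Ccna2, Birc5, Cenpf, Ube2c and Cdc20. The rule was met by 166 of the 14931 barcodes that had 300 or more genes, 500 or more UMIs and no more than 10% of UMIs from mitochondrial genes. The cells came from 4 libraries. One pool of 7 control mice (C57BL/6) and one pool of 8 iAdFASNKO mice were each divided with magnetic beads into cells bearing immune lineage markers (Lin+) and the remaining stromal cells (Lin-). The labels do not spell out iAdFASNKO, which is known as a mouse line with inducible loss of Fasn (fatty acid synthase) from adipocytes, and they give neither the age nor the sex of the mice nor the inducing treatment. Each library stands alone for its genotype and fraction, and no comparison between libraries has a replicate. The intervals given below are 95% intervals for counting error only.

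A dividing cell passes through G1, copies its DNA in S phase, prepares in G2 and separates its chromosomes in mitosis. Genes of replication are transcribed around the entry into S phase, while genes of the spindle and of chromosome segregation, to which most of the 10 chosen genes belong, are transcribed in G2 and mitosis. In adult fat, division is known among the stromal progenitors from which adipocytes arise and among resident or recruited immune cells.

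Many G2 and mitosis genes share 2 short promoter elements, the cell cycle homology region (CHR, TTTGAA) and the CCAAT box, which bind a repressor complex and the activator NF-Y. RefSeq promoters (GRCm38.p6, 250 bases before to 50 after the start of transcription) were found for 9 of the 10 genes. TTTGAA or its reverse complement TTCAAA occurred in 7 of these 9, against 17.9% of all 32851 promoters of the table. CCAAT or its reverse complement ATTGG occurred in 8 of the 9, against 37.4% of all promoters. Both elements occurred together in 7 of the 9 against 6.95% of all, and 8 of the 9 held at least 2 CCAAT boxes against 11.5% of all. A match describes letters only and shows no binding. The 250 bases upstream of 5 of the genes are shown because they span the range found, from Top2a with 2 CHR and 6 CCAAT matches to Birc5 with none. Each is written 5′ to 3′ toward the gene on mm10 with the matched letters in capitals. In Ube2c, CCAAT and ATTGG overlap at 1 place.
Mki67 (chr7:135716380-135716629, minus strand): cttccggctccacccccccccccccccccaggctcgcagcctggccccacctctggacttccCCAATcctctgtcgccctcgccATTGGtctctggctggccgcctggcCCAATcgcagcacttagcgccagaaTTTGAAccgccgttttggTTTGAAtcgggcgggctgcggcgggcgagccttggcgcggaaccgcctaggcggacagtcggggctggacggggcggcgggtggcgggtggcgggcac
Top2a (chr11:99024190-99024439, minus strand): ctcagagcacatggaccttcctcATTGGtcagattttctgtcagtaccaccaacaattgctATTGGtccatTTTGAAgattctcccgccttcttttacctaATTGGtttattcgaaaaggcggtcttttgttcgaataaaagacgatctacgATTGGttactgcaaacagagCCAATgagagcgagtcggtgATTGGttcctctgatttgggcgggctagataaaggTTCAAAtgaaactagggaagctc
Cdk1 (chr10:69352913-69353162, minus strand): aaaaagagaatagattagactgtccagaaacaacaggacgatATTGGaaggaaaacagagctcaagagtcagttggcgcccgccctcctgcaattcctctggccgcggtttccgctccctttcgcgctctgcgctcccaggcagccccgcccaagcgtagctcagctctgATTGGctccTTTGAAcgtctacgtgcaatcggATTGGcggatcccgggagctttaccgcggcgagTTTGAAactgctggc
Ube2c (chr2:164769679-164769928, plus strand): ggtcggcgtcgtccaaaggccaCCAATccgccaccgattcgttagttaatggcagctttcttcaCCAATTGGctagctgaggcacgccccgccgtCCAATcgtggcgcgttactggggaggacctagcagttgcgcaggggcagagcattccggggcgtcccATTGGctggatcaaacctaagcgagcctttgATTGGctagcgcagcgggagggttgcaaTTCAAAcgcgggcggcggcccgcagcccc
Birc5 (chr11:117848987-117849236, plus strand): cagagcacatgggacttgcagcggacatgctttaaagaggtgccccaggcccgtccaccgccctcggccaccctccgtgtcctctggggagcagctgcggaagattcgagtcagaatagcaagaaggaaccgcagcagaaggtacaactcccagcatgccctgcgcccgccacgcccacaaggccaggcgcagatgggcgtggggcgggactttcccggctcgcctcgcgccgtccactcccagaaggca

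The rule favours deeply sequenced cells, because a cell with more UMIs has more chances to show 3 genes. Cycling cells had median depths of 8669 UMIs in Lin+ control, 9644 in Lin+ iAdFASNKO, 12888.5 in Lin- control and 7435.5 in Lin- iAdFASNKO, against 5332, 3311, 9134 and 4190 UMIs in the remaining cells of each library. The filtered libraries held 19725195 to 29503960 UMIs. Fasn itself had a UMI in 18% and 26.2% of the control cells and in 9.21% and 10.1% of the iAdFASNKO cells (Lin+ and Lin- in each case). Its deletion is meant for adipocytes, which this fraction does not hold, so these levels do not check the labels.

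Some barcode sequences occurred in more than 1 library. Of the deposited barcode sequences, 100 occurred in all 4 libraries, 30 in 3, 79 in 2 and 17688 in 1. Among the cycling cells, 16 were shallow copies, meaning that another library held the same barcode sequence with at least 10 times the UMIs. These 16 cells had 554 to 1202 UMIs, and their depth was 1.55% to 3.08% of that of the deep cell. The 9 deep cells concerned were all cycling cells themselves, and in 12 of 12 pairs with a lineage call the call was the same. Shallow copies made up 9.64% of the cycling cells and 1.82% of all filtered cells, and 15 of the 22 cycling cells under 1000 UMIs were among them. They lay in every library, with 6 in Lin+ control, 5 in Lin+ iAdFASNKO, 3 in Lin- control and 2 in Lin- iAdFASNKO. Without them 150 cycling cells remained, and the main shares are given both ways.

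**Figure D1:**
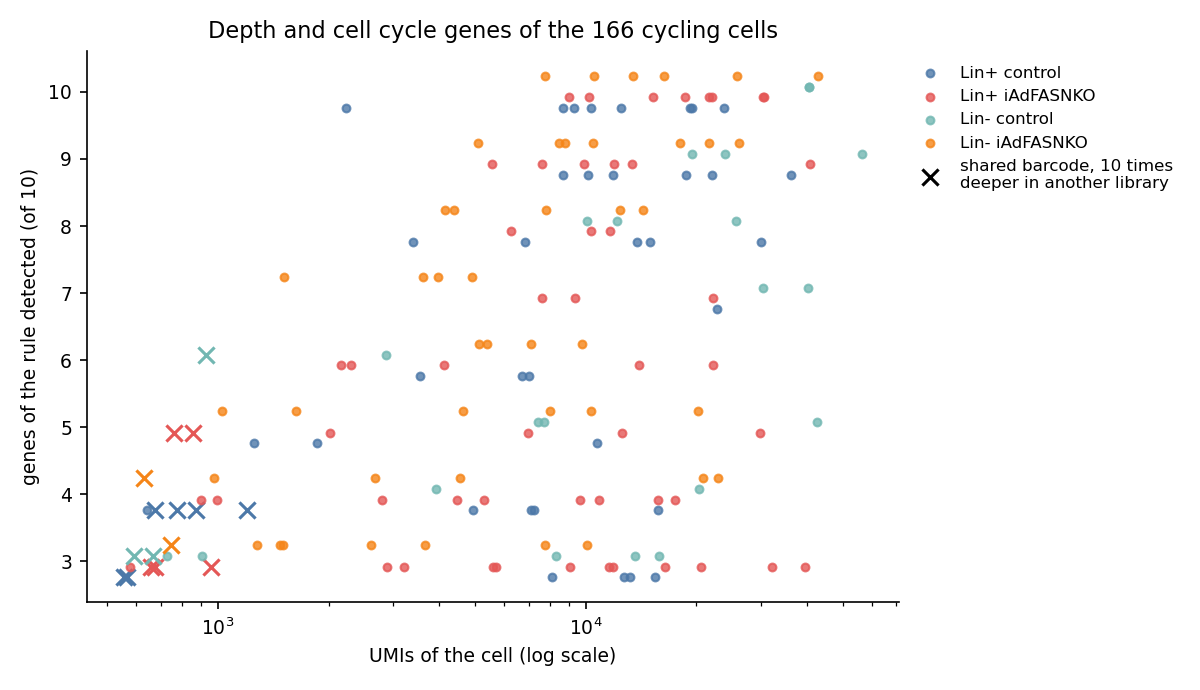
Each point is 1 of the 166 cycling cells, with its UMIs on a logarithmic horizontal axis and the number of the 10 cell cycle genes detected in it on the vertical axis, coloured by library. Crosses mark the 16 shallow copies, which all lie at or below 1202 UMIs.

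Cycling cells were rare in every library. They made up 1.40% of the cells in Lin+ control (41 of 2922, interval 1.01% to 1.90%) and 1.22% in Lin+ iAdFASNKO (55 of 4494, 0.923% to 1.59%). In Lin- they were 0.773% of the control cells (24 of 3103, 0.496% to 1.15%) and 1.04% of the iAdFASNKO cells (46 of 4412, 0.764% to 1.39%). All 4 intervals overlap. The ratio of the iAdFASNKO share to the control share was 0.872 in Lin+ (0.584 to 1.30) and 1.35 in Lin- (0.825 to 2.20), and both intervals hold 1. With shallow copies left out the shares were 1.24%, 1.13%, 0.687% and 1.01% in the same order. When every cell was thinned to 2000 UMIs the shares were 0.982% (23 of 2341), 0.836% (28 of 3349), 0.393% (11 of 2801) and 0.813% (28 of 3442), with 581, 1145, 302 and 970 shallower cells left out. The Lin- ratio after thinning was 2.07 (1.03 to 4.15).

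**Figure D2:**
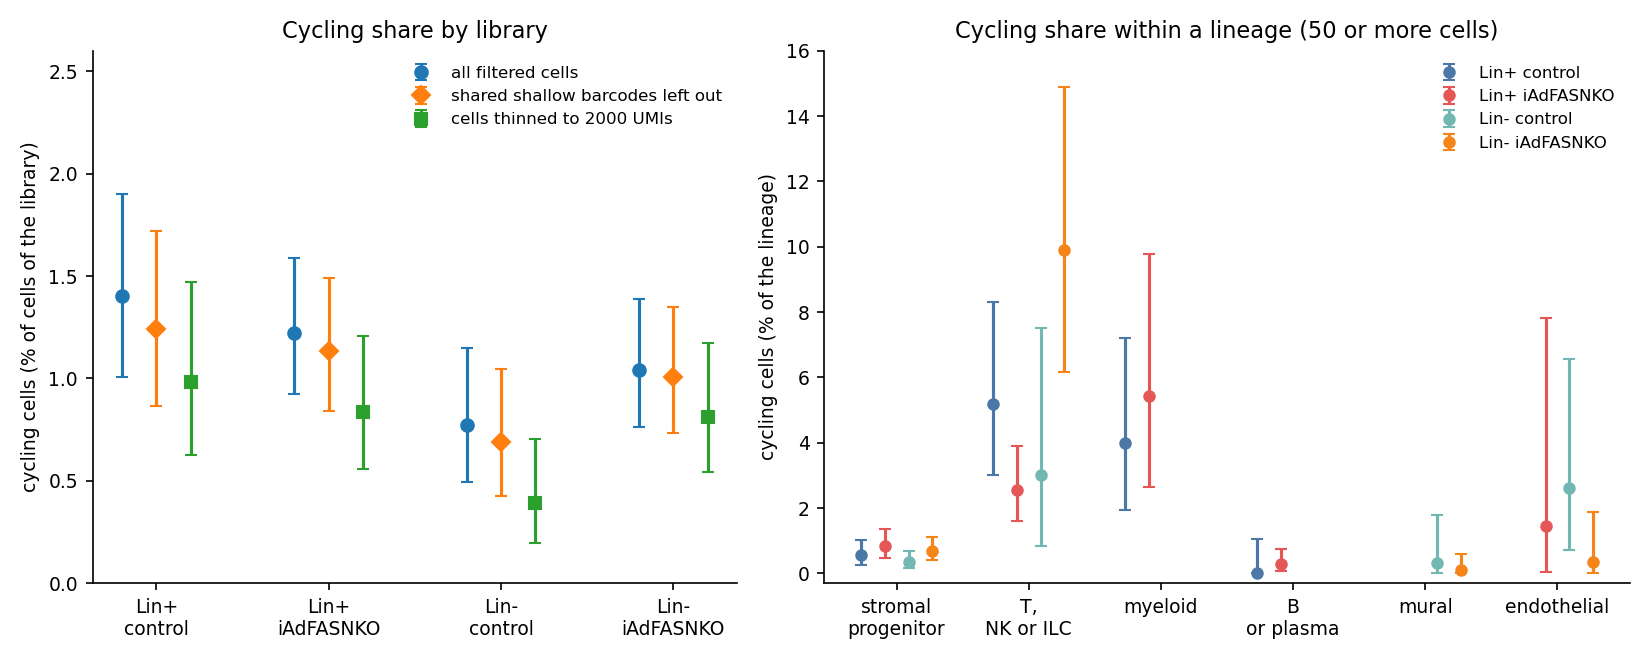
The left panel shows the share of cycling cells in each library, for all filtered cells, without shallow copies and after thinning to 2000 UMIs, and the right panel shows the share within each lineage of at least 50 cells in the library. Bars are 95% exact binomial intervals; among T/NK/ILC cells the share runs from 2.57% in Lin+ iAdFASNKO to 9.90% in Lin- iAdFASNKO.

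The values in this paragraph describe the rule and support nothing else, because they chose the cells. Mki67 (ENSMUSG00000031004, chr7:135689784-135716361 on mm10), which codes for the chromosome coat protein Ki-67, had UMIs in 151 of the 166 cells, namely in 38 of 41, 49 of 55, 20 of 24 and 44 of 46 in the order Lin+ control, Lin+ iAdFASNKO, Lin- control, Lin- iAdFASNKO. Top2a (ENSMUSG00000020914, chr11:98992943-99024189), the topoisomerase that untangles replicated DNA, had UMIs in 138 cells, and 36, 45, 19 and 38 of them lay in the 4 libraries. Cdk1 (ENSMUSG00000019942, chr10:69335146-69352938), the kinase that drives entry into mitosis, was seen in 84 cells, and its partners Ccna2, Ccnb1 and Ccnb2 in 80, 57 and 99. Birc5 (survivin, chr11:117849251-117855743), a subunit of the complex that corrects chromosome attachment, was seen in 109 cells and the kinetochore gene Cenpf in 118. Ube2c and Cdc20, which serve the ligase that degrades cyclin B, were seen in 116 and 70 cells. Mki67 and Top2a were thus the most often detected of the 10 and Ccnb1 the least. Among the 14765 other cells Mki67 had a UMI in 0.894%, Top2a in 1.02% and Ccnb1 in 0.129%.

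The number of detected genes left no gap at the threshold, but the counts of cells fell and then rose again. Of all filtered cells 14218 had none of the 10 genes, 495 had 1, 52 had 2, 36 had 3 and 26 had 4. Another 18 had 5, 14 had 6, 10 had 7, 16 had 8 and 22 had 9, while 24 had all 10. Just inside the threshold, the 36 cells with 3 genes had a median of 4620.5 UMIs and 5 UMIs of the rule genes. Just outside, the 52 cells with 2 genes had a median of 8599.5 UMIs and 2 UMIs of the rule genes. The cycling cells nonetheless held most of the rule-gene UMIs, at 91.4%, 88.5%, 89.8% and 93.9% of each library's total.

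The lineage of each cycling cell was read from marker lists that share no gene with the rule, by the list of which the largest share of markers was detected, with at least 3 of them. Where no list reached 3, the lists of 1 broad lineage were counted together. T/NK/ILC-like cells (T cells, natural killer cells and innate lymphoid cells) were the most frequent with 61 of 166, followed by stromal progenitor-like cells with 50 and myeloid-like cells with 24. The remainder were 6 endothelial-like, 5 B or plasma-like, 3 epithelial-like and 2 mural-like cells, 1 Schwann-like cell, 3 cells tied between lists and 11 that had no call. No mast or satellite cell was among them. T/NK/ILC-like cells were 36.7% of the cycling cells (29.4% to 44.6%) but 9.79% of all filtered cells, and myeloid-like cells 14.5% (9.49% to 20.7%) against 3.1%. The reverse order was seen for progenitor-like cells, at 30.1% (23.3% to 37.7%) against 56.1%, for B or plasma-like cells, at 3.01% against 11.8%, and for mural-like cells, at 1.2% against 8.56%. Without shallow copies 58 T/NK/ILC-like, 42 progenitor-like and 24 myeloid-like cells remained.

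This makeup was also counted in each library, and for each lineage named here the intervals of the 4 libraries overlap. T/NK/ILC-like cells numbered 16 of 41 in Lin+ control (39.0%, interval 24.2% to 55.5%) and 21 of 55 in Lin+ iAdFASNKO (38.2%, 25.4% to 52.3%). They were 4 of 24 in Lin- control (16.7%, 4.74% to 37.4%) and 20 of 46 in Lin- iAdFASNKO (43.5%, 28.9% to 58.9%). Of all filtered cells T/NK/ILC-like cells were 10.5%, 18.2%, 4.29% and 4.58% in the same order. Progenitor-like cells numbered 10, 15, 8 and 17 in the same order, or 24.4%, 27.3%, 33.3% and 37.0%, against 62.4%, 40.0%, 73.7% and 55.8% of all filtered cells. Myeloid-like cells numbered 10, 10, 1 and 3, or 24.4%, 18.2%, 4.17% and 6.52%, against 8.59%, 4.09%, 0.387% and 0.363% of all filtered cells. Thus 25 progenitor-like cycling cells came from the Lin+ libraries (7 and 13 without shallow copies), and 24 T/NK/ILC-like and 4 myeloid-like cycling cells from the Lin- libraries. The share of a lineage in a library is also set by how the beads divided the cells, and the 2 cannot be told apart.

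**Figure D3:**
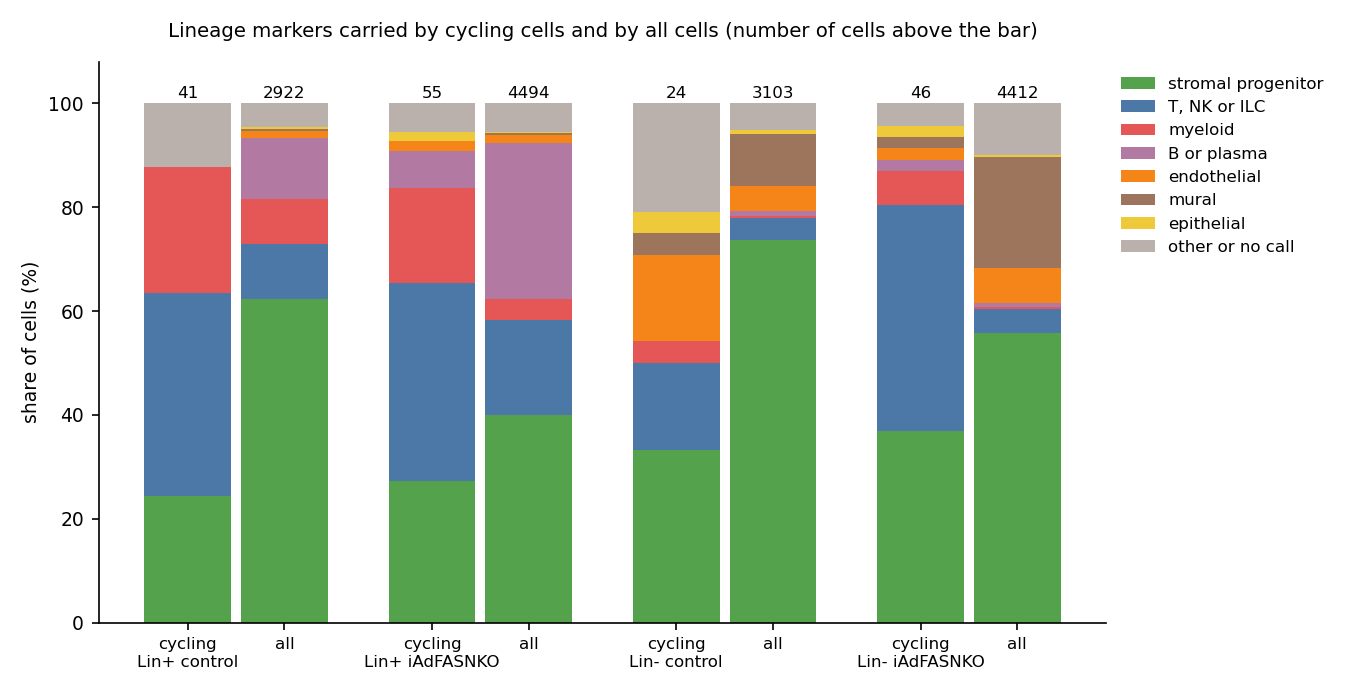
For each library the left bar divides the cycling cells and the right bar all filtered cells by the lineage whose markers they carry, in percent, with the number of cells above each bar. T/NK/ILC-like cells take 36.7% of the cycling cells over the 4 libraries and 9.79% of all cells.

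The lineage calls were compared with clusters built without proliferation genes, and 142 of the 166 cells lay in a cluster named for the same lineage. This held for 59 of 61 T/NK/ILC-like, 44 of 50 progenitor-like and 23 of 24 myeloid-like cells. Cells with at least 50% of the markers of a second lineage numbered 27 of 166 (16.3%), against 6.56% of the other cells, and their numbers were 11, 5, 7 and 4 in Lin+ control, Lin+ iAdFASNKO, Lin- control and Lin- iAdFASNKO. A doublet caller marked 2 of the 166 cycling cells (1.2%) and 1.53% of the others. The part of mixed droplets in the results was not tested beyond leaving these cells out. Haemoglobin and other erythroid markers were widespread in Lin+, where 31 of 41 and 48 of 55 cycling cells carried at least 3 of them, against 77.1% and 90.2% of the other cells, and in 0 cycling cells of either Lin- library.

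**Figure D4:**
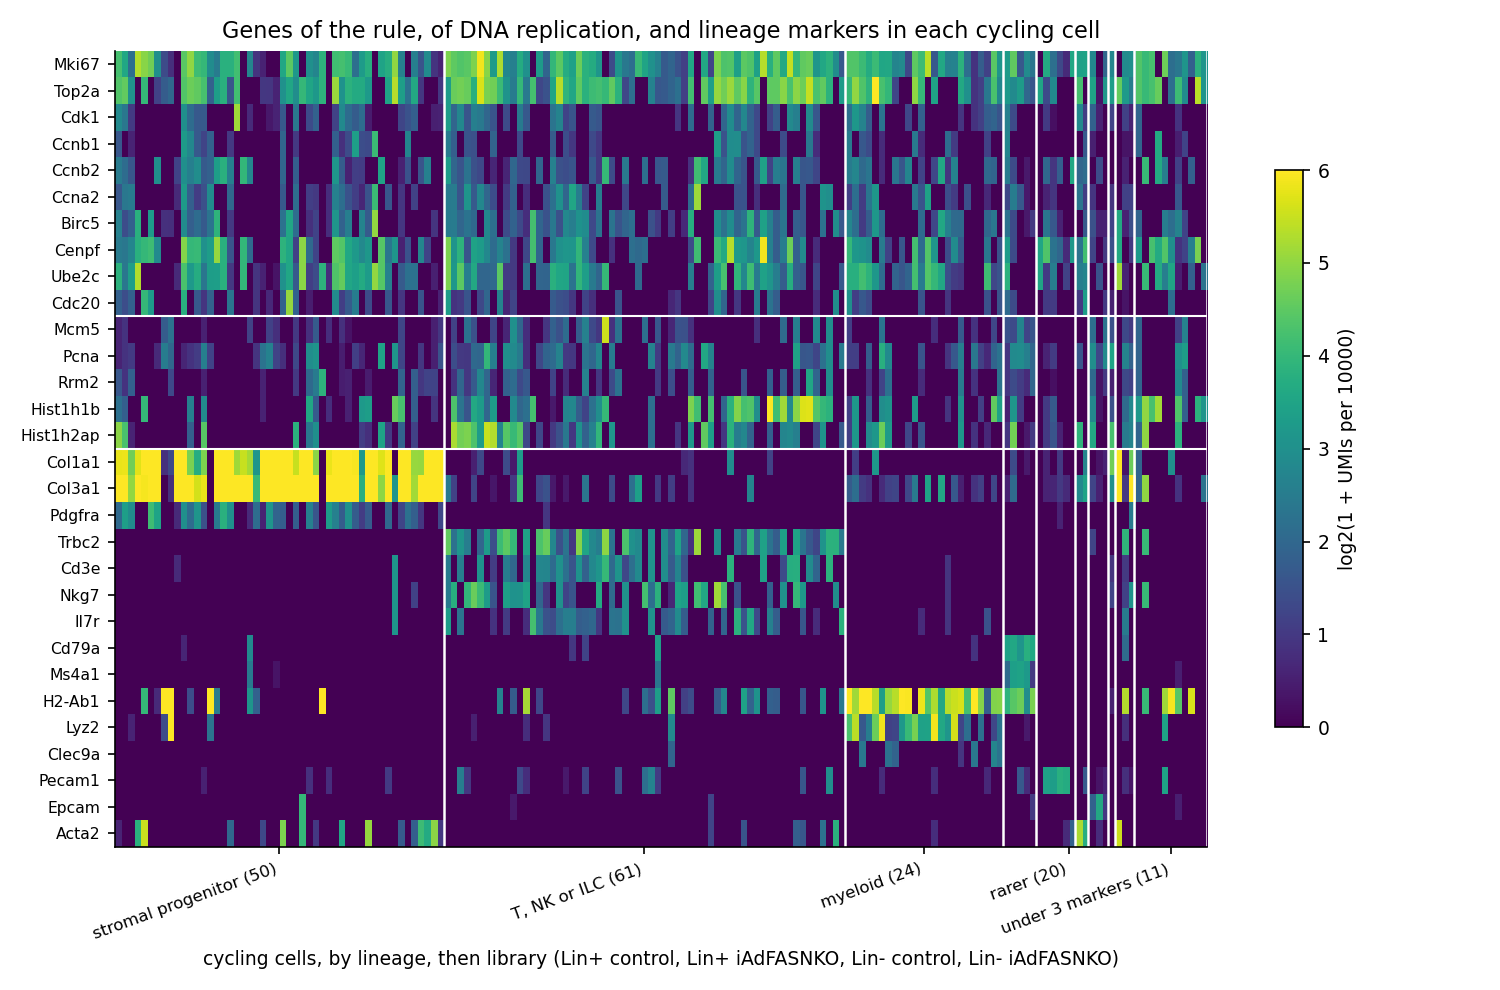
Each column is 1 of the 166 cycling cells, ordered by lineage and then by library, and each row a gene; colour gives the log2 level scaled to the UMIs of the cell (units on the colour bar), with a scale that ends at 6. The top block holds the 10 genes of the rule, the middle block replication and histone genes, and the lower block lineage markers, of which Col1a1 and Col3a1 are each seen in 47 of the 50 progenitor-like columns and Trbc2, Cd3e, Nkg7 and Il7r mark the 61 T/NK/ILC-like ones.

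Within lineages, the share of cycling cells was 4.18% of 1461 T/NK/ILC-like cells, 5.18% of myeloid-like cells and 0.597% of progenitor-like cells. Among T/NK/ILC-like cells it was 5.19% in Lin+ control (16 of 308), 2.57% in Lin+ iAdFASNKO (21 of 818), 3.01% in Lin- control (4 of 133) and 9.90% in Lin- iAdFASNKO (20 of 202). The iAdFASNKO library was thus lower in Lin+ and higher in Lin-. The ratio was 0.494 in Lin+ (0.261 to 0.934) and 3.29 in Lin- (1.15 to 9.42). Leaving out cells with a second lineage gave 0.708 in Lin+, with an interval that reaches 1.5, and leaving out called doublets gave 0.532, with an interval that reaches 1.02. In Lin- the ratio was 4.34 without shallow copies and 9.45 after thinning, where 14 of 80 cells of the iAdFASNKO library were cycling and 122 were too shallow to enter. The depths of the non-cycling T/NK/ILC-like cells differed, with medians of 1657 UMIs in Lin- iAdFASNKO and 3610 in Lin- control. Of the 20 cycling cells of Lin- iAdFASNKO, 9 were nearest to the T cell list, 2 to the natural killer list and 3 to the type 2 innate lymphoid list. The rest had under 3 markers of each list and were called from these lists counted together. Exactly 3 markers of a list carried 7 of the 20 calls.

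Progenitor-like cells were cycling at 0.549% in Lin+ control, 0.834% in Lin+ iAdFASNKO, 0.350% in Lin- control and 0.690% in Lin- iAdFASNKO. The iAdFASNKO share was the higher one in both fractions, with ratios of 1.52 (0.685 to 3.38) and 1.97 (0.853 to 4.56), but both intervals hold 1. Myeloid-like cells were cycling at 3.98% (10 of 251) and 5.43% (10 of 184) in Lin+ control and Lin+ iAdFASNKO, a ratio of 1.36 (0.580 to 3.21). In the Lin- libraries only 1 of 12 and 3 of 16 myeloid-like cells cycled. B or plasma-like cells cycled in 0 of 345 in Lin+ control, which allows a share of up to 0.870% by a limit of 3 counts (1.06% by the exact binomial interval), and in 4 of 1347 (0.297%) in Lin+ iAdFASNKO. Mural-like cells had the lowest share of the larger lineages, with 2 of 1278 (0.156%).

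Next, the T/NK/ILC-like cycling cells were described by the markers they carried. Most held transcripts of the T cell receptor beta chain, while other T cell markers were less widespread. Trbc2, the constant part of the receptor beta chain, had UMIs in 13 of 16 cells in Lin+ control, 18 of 21 in Lin+ iAdFASNKO, 2 of 4 in Lin- control and 17 of 20 in Lin- iAdFASNKO, against 0.307% to 2.80% of progenitor-like cells, which should lack it. Cd3e, a subunit of the receptor complex, had UMIs in 9, 19, 0 and 8 of these cells. Trbc1, of the same chain as Trbc2, had UMIs in 8, 15, 3 and 12, and Trac, of the alpha chain, in 8, 17, 2 and 2. In Lin- iAdFASNKO the other markers of the T cell list, Cd3d, Cd3g and Lck, had UMIs in 4, 7 and 7 of the 20 cells. By marker lists within the lineage, 10, 19, 2 and 9 cells were nearest to T cells, 5, 2, 1 and 2 to natural killer cells, and 3 cells of Lin- iAdFASNKO to type 2 innate lymphoid cells.

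Some lymphoid markers lay mostly in cells of 1 fraction, a difference that was not tested. Cd8b1, of the cytotoxic T cell co-receptor, had UMIs in 4 of 16, 12 of 21, 0 of 4 and 1 of 20 cycling cells in Lin+ control, Lin+ iAdFASNKO, Lin- control and Lin- iAdFASNKO, and Foxp3, the factor of regulatory T cells, in 2, 5, 0 and 0. Il13, a cytokine of type 2 cells, had UMIs in 0, 0, 2 and 4 cells. Other listed genes of type 2 cells did not share this pattern, with the receptor gene Il1rl1 in 2, 4, 0 and 0, Areg in 1, 3, 1 and 3 and Il5 in none. Trdc, the constant part of the delta receptor chain, was seen in both fractions, with UMIs in 4, 2, 0 and 5 cells. Icos, a co-stimulatory receptor, was carried in both fractions by 10, 12, 1 and 13 cells. Nkg7, a granule protein of cytotoxic cells, was carried by 13, 12, 2 and 8, and the protease granzyme B (Gzmb) by 8, 7, 0 and 4. In the clustering, 30 of the 61 cells lay in a cluster led by Cd52, Ptprc and Trbc2, 20 in one led by Il7r, S100a4 and Emb, of which 14 came from Lin- iAdFASNKO, and 9 in one led by Ccl5 and Nkg7.

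Levels in cycling cells were then set against the other cells of the same lineage, as CPM (counts scaled by the total UMIs of the set), with the libraries weighted alike in both. Since the rule chose the cells by this contrast, what follows is a description with no test. A gene was called higher or lower when its CPM differed at least 1.5-fold, its counting interval did not hold 1 and it had at least 20 UMIs. In T/NK/ILC-like cells 15.5% of 10090 genes were called higher and 10.7% lower. All 17 genes of replication licensing and the G1/S transition, all 20 of DNA synthesis and nucleotide supply, all 30 of the spindle and all 23 of chromatin and histones that were listed were called higher, with median log2 ratios of 3.60, 2.77, 6.65 and 4.11. The median over all genes was -0.01.

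These genes can be given by their steps. Mcm5, part of the helicase that opens the replication fork, was at 185 CPM in cycling and 17.8 CPM in other T/NK/ILC-like cells, a ratio of 10.4 (7.81 to 13.9). Pcna, the sliding clamp of the polymerases, differed 3.87-fold (3.20 to 4.66) and Rrm2, a subunit of the enzyme that makes deoxynucleotides, 54.5-fold (28.1 to 118). The linker histone gene Hist1h1b was at 886 CPM against 3.29 CPM, a ratio of 270 (171 to 452). Aurkb, the kinase partner of survivin, differed 447-fold (147 to 2217) and the spindle protein gene Nusap1 246-fold (123 to 576).

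Genes were also ranked within each of the 2 libraries with at least 20 such cells, Lin+ iAdFASNKO and Lin- iAdFASNKO, and those lower in both include genes of resting lymphocytes. Satb1, a chromatin organiser of T cells, was lower at ratios of 0.352 (0.252 to 0.480) in Lin+ iAdFASNKO and 0.0401 (0.001 to 0.231, from 1 UMI) in Lin- iAdFASNKO, and the survival gene Bcl2 at 0.332 and 0.0994. Btg1, an anti-proliferative gene, was lower at 0.353 and 0.298, and Il7r, the receptor of the survival cytokine interleukin 7, at 0.453 and 0.244. Over all 4 libraries Il7r stood at 227 CPM in cycling and 752 CPM in other cells, a ratio of 0.302 (0.251 to 0.361). Of the 6 listed G1 cyclins and kinases, Cdk4 was called higher at 2.17 (1.65 to 2.82) and the D-type cyclin gene Ccnd2 lower at 0.363 (0.302 to 0.433). Of 12 measured cell cycle inhibitors and quiescence genes 6 were called lower, among them the inhibitor p27 gene Cdkn1b at 0.530 (0.402 to 0.688), and 1 higher, the inhibitor p18 gene Cdkn2c at 11.1 (6.57 to 18.7). Of all genes of the lineage 10.7% were called lower and 15.5% higher.

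Among the 19 listed T cell subset and activation genes 5 were called higher and 3 lower, with a median log2 ratio of 0.26. Over all 10090 genes of the lineage 15.5% were called higher and 10.7% lower. Gzmb was higher at 211 against 109 CPM, a ratio of 1.94 (1.56 to 2.39), and the inhibitory receptor gene Ctla4 at 1.65 (1.21 to 2.23). Trdc was higher at 1.69 (1.35 to 2.10). Single libraries differed, given in the order Lin+ control, Lin+ iAdFASNKO, Lin- control, Lin- iAdFASNKO. Gzmb stood at 1.56, 6.37, 0 and 1.37, Ctla4 at 0.850, 2.50, 0 and 1.87, and Trdc at 2.59, 1.22, 0 and 1.27. The interval lay above 1 only in Lin+ iAdFASNKO for Ctla4 (1.71 to 3.56) and only in Lin+ control for Trdc (1.88 to 3.54). The co-receptor gene Cd4 was lower at 27.2 against 79.4 CPM, a ratio of 0.343 (0.191 to 0.571). Without cells that carry a second lineage, 782 genes instead of 1079 were called lower in the lineage.

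Most of the 50 progenitor-like cycling cells carried collagen genes. Col1a1, of type I collagen, had UMIs in 10 of 10, 14 of 15, 7 of 8 and 16 of 17 cells of Lin+ control, Lin+ iAdFASNKO, Lin- control and Lin- iAdFASNKO. Of the non-cycling T/NK/ILC-like cells, which should lack this gene, 11.5% to 20.2% had a UMI as well. Pdgfra, the receptor that marks adipose progenitors, had UMIs in 6, 12, 5 and 12 cells, against at most 2.06% of T/NK/ILC-like cells in any library. Of the 50 cells 31 lay in 1 cluster, led by Col1a2, Col1a1 and Col3a1 and holding Postn among its 10 leading genes, where 6.85% of the other progenitor-like cells (570 of 8319) were found. That cluster held 5 of 10, 8 of 15, 4 of 8 and 14 of 17 cells of the 4 libraries. Another 4 of the 50 cells lay in a cluster named myeloid. All 4 carried H2-Ab1, a class II gene, only 2 had a UMI of Col1a1 and 1 of Col3a1, so that these markers go against their lineage name.

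Some markers of the known progenitor subsets were less abundant in the cycling cells. Of 17 listed subset genes 0 were called higher, 9 lower and 8 neither, with a median log2 ratio of -0.67, while 14.5% of 14367 genes were called higher in this lineage and 7.75% lower, with a median of 0.24 over all genes. Smoc2, a matrix protein gene of committed progenitors, stood at 104 against 569 CPM, a ratio of 0.182 (0.143 to 0.229), and was detected in 17 of 50 cells against 64.2% of the others. It was lower in each library, at ratios of 0.384, 0.466, 0.133 and 0.0995. The chemokine gene Cxcl14 stood at 138 against 678 CPM, a ratio of 0.203 (0.165 to 0.248), and the growth factor gene Fgf10 at 0.207 (0.0944 to 0.392). Pi16, a peptidase inhibitor gene of the interstitial progenitors, was lower at 0.529 (0.462 to 0.604), and its UMIs lay in 3 of 10 and 8 of 15 Lin+ cells and in 0 of 8 and 0 of 17 Lin- cells. In Lin+ control alone its ratio was 0.926 (0.776 to 1.10). Dpp4, another gene of that subset, missed the call at 0.732 (0.592 to 0.896), with UMIs in 4, 10, 1 and 6 cells. Single libraries went the other way for some genes of the list. In Lin- iAdFASNKO, Dpp4 stood at 2.13 (1.33 to 3.26) and the tetraspanin gene Cd9 at 2.26 (1.93 to 2.65). In Lin- control the tissue factor gene F3 stood at 3.14 (2.29 to 4.20) and the matrix protein gene Mgp at 1.69 (1.42 to 2). These 2 values rest largely on single cells, as 38 of the 46 F3 UMIs and 97 of the 139 Mgp UMIs lay in 1 cell. F3 was detected in 2 of 8 cycling cells of Lin- control, against 36.1% of the others.

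Matrix and contractile genes lay on both sides. Col1a1 stood at 10005 against 7757 CPM, a ratio of 1.29 (1.26 to 1.32) that missed the fold required, with 0.504 in Lin+ control and 1.85 in Lin- control at the extremes. Dcn, a proteoglycan of mature stroma, was lower at 0.376 (0.364 to 0.389) and the elastin gene Eln at 0.256 (0.203 to 0.318). Postn, a matrix protein gene of growing and healing tissue, was higher at 1221 against 478 CPM, a ratio of 2.55 (2.38 to 2.73) with UMIs in 36 of 50 cells. Acta2, the smooth muscle actin gene of contractile cells, was higher at 3.70 (3.31 to 4.12) with UMIs in 3, 2, 3 and 8 cells of the 4 libraries. Myh11, a myosin of smooth muscle, stood at 3.43 (2.92 to 4.01) and at 0.941 when cells with a second lineage were left out, whereas Acta2 then stood at 5.61. Dcn, Eln and Postn were chosen after their values were seen.

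All listed genes of the cycle were called higher in this lineage too, with 17 of 17, 20 of 20, 30 of 30 and 23 of 23 genes in the same order of lists and median log2 ratios of 3.66, 3.11, 8.04 and 4.09. Pcna stood at 176 against 33.9 CPM, a ratio of 5.18 (4.29 to 6.21), and Mcm5 at 27.1 (18.8 to 38.3). Uhrf1, which copies DNA methylation to new strands, stood at 99.3 (66.8 to 148). The motor protein gene Kif4 had 56 UMIs in 20 cycling cells and none in the others, which makes it at least 1685-fold higher against a floor of 3 UMIs over the set. Of the 6 G1 cyclins and kinases 4 were called higher and 1 lower. They included Ccnd1, the D-type cyclin that answers growth factors, at 2.74 (2.16 to 3.43), while Ccnd2 was lower at 0.606 (0.483 to 0.751). Of 15 inhibitors and quiescence genes 7 were called lower and 2 higher, while 7.75% of all genes of the lineage were called lower and 14.5% higher. Cdkn1c, the inhibitor p57, was lower at 0.236 (0.113 to 0.435), and Cdkn2c and Cdkn2d were higher at 7.74 (6.07 to 9.74) and 8.71 (6.81 to 11).

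Of the 24 myeloid-like cycling cells 23 carried the antigen presentation gene H2-Ab1, against 77.7% of the other myeloid-like cells. H2-Ab1, of the class II molecules that show antigen to T cells, had UMIs in 10 of 10, 9 of 10, 1 of 1 and 3 of 3 cells of the 4 libraries. Its level was 4490 CPM against 4092 CPM in other myeloid-like cells, a ratio of 1.10 that missed the call. By marker lists 4, 2, 0 and 3 cells were nearest to dendritic cells, 5, 6, 0 and 0 to macrophages or monocytes, and 2 cells of Lin+ iAdFASNKO to neutrophils. Genes of the cross-presenting dendritic cells were called higher: Xcr1, a chemokine receptor, at 2.21 (1.29 to 3.70), Wdfy4 at 2.23 (1.71 to 2.87) and the dead cell receptor gene Clec9a at 1.72 (1.02 to 2.80). Wdfy4 had UMIs in 14 of 24 cells, Clec9a in 7 and Xcr1 in 5. These 3 rest on few molecules, and 13 of the 23 Xcr1 UMIs lay in 1 cell. The ratios were above 1 in the Lin+ libraries, at 2.86 and 12.2 for Xcr1, 3.14 and 7.53 for Clec9a and 3.25 and 6.31 for Wdfy4 (control and iAdFASNKO). They were below 1 in the Lin- libraries, at 0 and 0.296, 0 and 0.800, and 0.654 and 0.611, from 1 and 3 cells. Other genes of dendritic cells lay on both sides of 1. Siglech had 0 UMIs in the 24 cells and was lower, at a ratio of at most 0.140 against the floor. Cd209a stood at 0.758 and 0.362 in Lin+ control and Lin+ iAdFASNKO and had 0 UMIs in the Lin- cycling cells. Flt3 stood at 1.57 and 1.91 in the Lin+ libraries and at 0.586 and 0.606 in the Lin- libraries (control and iAdFASNKO).

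Several macrophage and monocyte genes were lower in this lineage. Of 14 measured macrophage subset genes 0 were called higher, 6 lower and 8 neither, with a median log2 ratio of -0.93, against 9.23% of 8368 genes called higher and 8.44% lower. Lyve1, a hyaluronan receptor of perivascular macrophages, had 0 UMIs in the 24 cells and 173 CPM in the others, a ratio of at most 0.0809 against the floor. Cd163, a scavenger receptor of resident macrophages, stood at 42.1 against 236 CPM, a ratio of 0.178 (0.0812 to 0.341). The share of cells with a Cd163 UMI was similar, at 5 of 24 (20.8%) against 21.2% of the others. Ly6c2, a marker of classical monocytes, had 1 UMI and a ratio of 0.0206 (0.000521 to 0.115). The monocyte receptor gene Ccr2 stood on the other side of 1 and was not called, at 1.5 (1.24 to 1.81) with UMIs in 16 of 24 cells against 42.6%. The cytokine gene Il1b was lower at 0.0710 (0.0439 to 0.109). Il1b is among the leading genes of a cluster led by S100a9 and S100a8, 2 genes of the neutrophil marker list. That cluster held 1 of the 24 cycling cells and 89 of the 439 other myeloid-like cells (20.3%). The part of neutrophils in the lower level of Il1b was not tested. Without cells that carry a second lineage Il1b stood at 0.0423.

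Cell cycle lists in myeloid-like cells could be measured in part. Called higher were 9 of 9 measured licensing genes (17 listed), 13 of 14 synthesis genes (20 listed), 21 of 21 spindle genes (30 listed) and 21 of 21 chromatin genes (23 listed), with median log2 ratios of 2.47, 2.52, 4.92 and 3.27. Of all 8368 genes of the lineage 9.23% were called higher, and the median log2 ratio was -0.009. Stmn1, which destabilises microtubules, stood at 856 against 22.0 CPM, a ratio of 38.8 (25.3 to 62.2). Cdca8, the borealin partner of survivin, stood at 192 against 2.4 CPM, and Pcna at 3.46 (2.52 to 4.71). Genes that had too few UMIs to be measured here are left out of these counts, so they do not cover the lists in full.

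Immediate early and heat shock genes, which are known to be induced while tissue is digested, were less abundant in cycling cells of all 3 lineages. Of 13 listed genes 11 were called lower in progenitor-like, 10 in T/NK/ILC-like and 10 in myeloid-like cells, and 0 higher in each, with median log2 ratios of -1.46, -1.06 and -1.16. Of all genes 7.75%, 10.7% and 8.44% were called lower in these lineages, and 14.5%, 15.5% and 9.23% higher. The medians over all genes were 0.24, -0.01 and -0.009. Fos, a subunit of the factor AP-1, stood at 805 against 2216 CPM in progenitor-like cells, a ratio of 0.363 (0.334 to 0.395). In T/NK/ILC-like cells its ratio was 0.421 (0.325 to 0.537) and in myeloid-like cells 0.243 (0.187 to 0.311). The chaperone gene Hsp90aa1 missed the call at 1.04 in progenitor-like and 1.49 in T/NK/ILC-like cells.

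**Figure D5:**
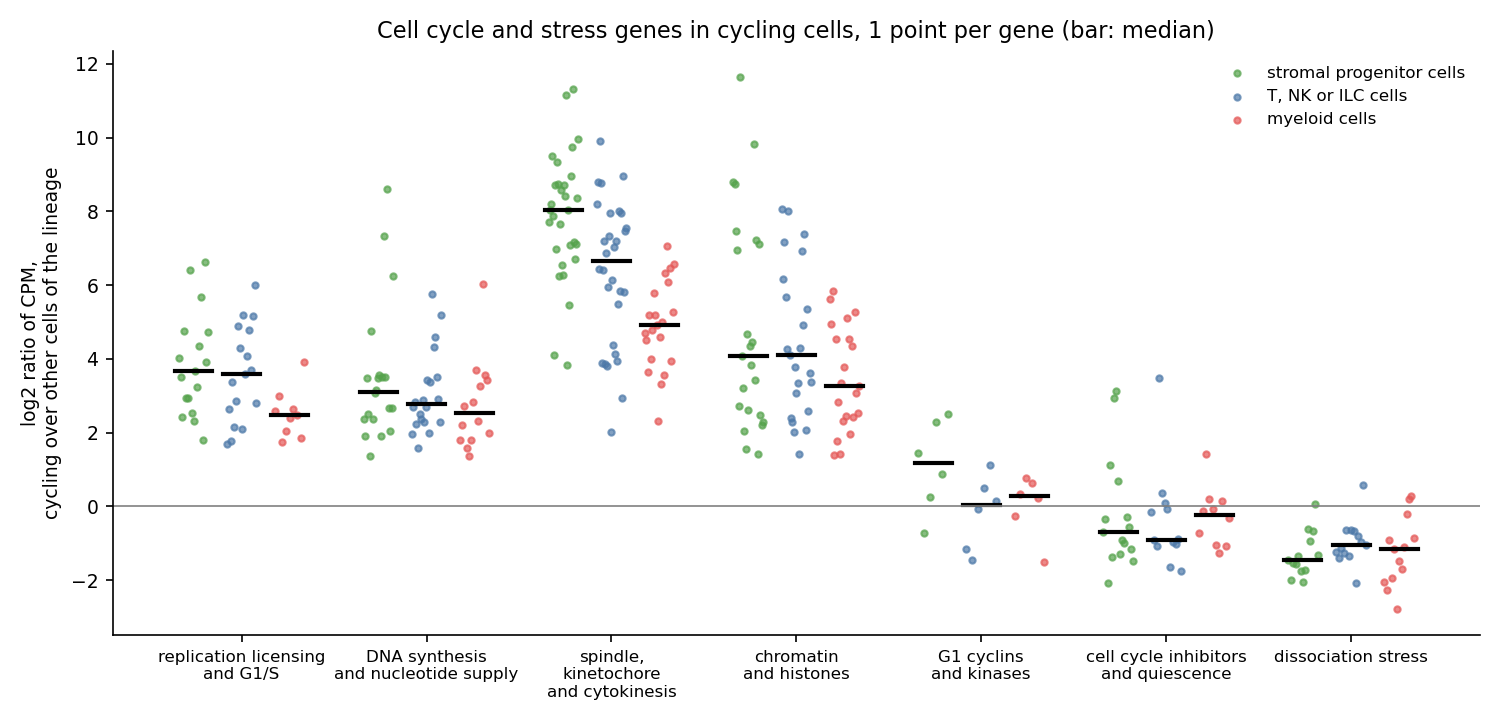
Each point is 1 gene of a list, placed by the log2 ratio of its CPM in cycling cells to that in the other cells of the same lineage, with green for progenitor-like, blue for T/NK/ILC-like and red for myeloid-like cells and a black bar at the median. Of the lists shown the spindle genes lie highest, with medians of 8.04, 6.65 and 4.92, and the dissociation stress genes lie below 0 in the median of every lineage.

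The rarer lineages were described cell by cell. The 5 B or plasma-like cells, 4 from Lin+ iAdFASNKO and 1 from Lin- iAdFASNKO, all carried the B cell receptor signalling gene Cd79a. They were examined for genes of germinal centre B cells, the dividing cells of an immune response. Rgs13, a brake on chemokine signalling, and Mef2b and Mybl1, transcription factor genes of that stage, each had UMIs in 4 of 5 cells, against 0.342%, 1.14% and 0.514% of the other B or plasma-like cells. Bcl6, the factor that directs the germinal centre programme, had UMIs in 3 of 5 against 12.9%. Other genes of that list were seen in fewer or as many of the 5 cells, with Basp1 in 4, Gcsam and Fas in 2 and S1pr2 and Nuggc in 1. The cycling B cells had 6287 to 29769 UMIs, against a median of 2445 in the others, and the part of depth in these shares was not tested.

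All 6 endothelial-like cells carried the tight junction gene Cldn5, and 5 of them the adhesion gene Cdh5. Of the lymphatic markers, Mmrn1 and Flt4 had UMIs in 5 of 6 cells, the lymphatic factor gene Prox1 in 4, Reln in 2, and Lyve1 and Ccl21a in 1 each. By marker lists 1 of the 6 cells was nearest to lymphatic endothelium. Of the 4 such cells in Lin- control 3 also carried a second lineage, and the 1 in Lin+ iAdFASNKO was a shallow copy. The 3 epithelial-like cells all held Epcam and Cdh1, and the basal keratin genes Krt5 and Krt14 lay in 2 of them. Both mural-like cells held all 8 markers of the mural list. The single Schwann-like cell held Sox10, a factor of glial identity, and it carried a second lineage as well.

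The 2 sets of genes in the cycle were also compared as a balance between replication and division in each cell. Of 37 replication genes the median cell had 12, 12, 16.5 and 9 detected in Lin+ control, Lin+ iAdFASNKO, Lin- control and Lin- iAdFASNKO, and of 30 division genes 16, 10, 7 and 13.5. Division UMIs exceeded replication UMIs in 99 of the 166 cells. The ratio of summed replication to division UMIs was 0.764, 1.10, 1.03 and 0.543 in the 4 libraries. By lineage it was 0.552 in progenitor-like, 0.915 in T/NK/ILC-like and 0.599 in myeloid-like cells. Since 3 genes, mostly of late phases, chose the cells, early S phase cells are under-represented by construction. After thinning, 38 of 11798 cells outside the rule (0.322%) had at least 5 replication genes, of which 17 were T/NK/ILC-like, against 61 of 135 cycling cells (45.2%).

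Finally, iAdFASNKO and control cycling cells were compared within the 2 lineages that had at least 10 cells in both Lin+ libraries after shallow copies were set aside, a limit chosen after the data were seen because none reached 20. Among T/NK/ILC-like cells (21 against 16), some genes of natural killer and other innate-type lymphocytes were lower in the iAdFASNKO library. Klrc1, a receptor of natural killer cells, had 3 UMIs against 40, a CPM ratio of 0.0726 (0.0144 to 0.228), and Fcer1g, a signalling chain of innate cells, 11 against 66, a ratio of 0.161 (0.0769 to 0.308). Trdc had 11 UMIs against 62, a ratio of 0.172 (0.0816 to 0.329), whereas Cd163l1, a receptor of gamma delta T cells, had 6 against 11 and was not called. Ifi27l2a, an interferon-induced gene, was higher with 292 UMIs against 75, a ratio of 3.77 (2.92 to 4.93), and Maf, a factor of T helper subsets, with 112 against 24, a ratio of 4.52 (2.89 to 7.35), of which 52 UMIs lay in 1 cell. Cells nearest to natural killer cells numbered 2 and 5, so a different mix of lymphoid cells and a different level per cell cannot be told apart here.

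Genes of the cycle were compared in the same way. Of all genes 4.47% of 3202 were called higher in the iAdFASNKO library and 8.37% lower. Of the 28 measured spindle genes 0 were called higher and 8 lower, with a median log2 ratio of -0.66, and of 22 chromatin genes 0 and 7, with -0.47, while the median of all genes was -0.11. Detection of related genes chose these cells, and 15 of the 55 cycling cells of Lin+ iAdFASNKO against 6 of the 41 of Lin+ control had exactly 3 of the rule genes. The part of this difference in the counts was not tested, and they are a description only.

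Among myeloid-like cells (10 against 10), 4.86% of 1358 genes were called higher and 16% lower in the iAdFASNKO library. Retnla, a gene of alternatively activated macrophages, had 175 UMIs against 36, a ratio of 4.26 (2.97 to 6.29), and the matrix gene Fn1 109 against 7, a ratio of 13.7 (6.41 to 34.8). Both rest on few cells, since 78 of the Retnla and 56 of the Fn1 UMIs lay in 1 cell. Ifi27l2a had 23 UMIs against 121, a ratio of 0.167 (0.102 to 0.262), which is the opposite direction to that in T/NK/ILC-like cells, a difference that was not tested. Of 16 measured spindle genes 9 were called lower and 0 higher, with a median log2 ratio of -1.30 against -0.19 over all genes, among them the cytokinesis motor gene Kif23 with 17 UMIs against 65, a ratio of 0.229 (0.126 to 0.396). These counts too come from cells chosen by related genes and are a description only. The gene Gm42418 had 9899 UMIs against 933, a ratio of 9.31 (8.70 to 9.96), and took 4910 of its UMIs from 1 cell. Without the cell with most UMIs of each gene the number called higher fell from 66 to 18.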

How the data were processed

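Single-cell libraries of pooled mice were made with a 10X Genomics 3' kit (v3), per the labels' protocols. The authors deposited 2 matrices of raw UMI counts, whole numbers per gene and barcode that are not normalized, per the file headers. The submitters' processing notes name mm10, Cell Ranger 3.1.0 and Seurat 3.0, while software 3.0.2 stands in the matrix header. For the annotation release, and for filters that the authors may have put on barcodes, the entry is: not given in the sources used here. The barcode tag gives the fraction, per the labels. The genotype was read from the matrix name, which matches only 1 treatment; were that name wrong, all directions between genotypes would be the opposite. Coordinates are those of GENCODE M21 (30907 of 31017 features matched by identifier) and promoters those of RefSeq.

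Barcodes needed 300 genes, 500 UMIs and a mitochondrial share of 10% or less. A cell took the lineage whose list had the largest share of its markers detected, with at least 3 of them; where no list reached 3, the lists of 1 broad lineage were counted together. Doublets were called with Scrublet (scanpy 1.11.5, expected rate 0.06) and kept. Cells were clustered with the Leiden method (leidenalg 0.10.2, resolution 1, 2000 variable genes without proliferation genes, 30 components, 20 neighbours). Intervals are at 95% and for counting error only: Clopper-Pearson (exact binomial) for shares, Katz for their ratios, and the exact binomial conditional on the sum for CPM ratios. For CPM ratios within a lineage the other cells of each library were weighted by the UMIs of its cycling cells. A gene was tested with at least 20 UMIs over both sets and called at 1.5-fold with an interval that does not hold 1, and a set at 0 took a floor of 3 UMIs. The procedure was tested on simulated data. No p-value is given, because each group is 1 library.

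The text names the genes of the rule, the members of the gene lists, the 12 genes highest and lowest between cycling and other cells in each library with at least 20 such cells of a lineage, and the 6 highest and lowest between genotypes by the bound nearest 1, without sex-linked, haemoglobin and antigen receptor genes and without genes whose UMIs lie mostly in 1 cell. Other names were chosen after their values were seen. The members and lists were chosen with earlier results of these data known. Leaving out shallow copies, the second-lineage comparison of gene calls, other UMI minimums for genotype calls and leaving out each gene's top cell were added after seeing the data. Some genes of the lists are not reported here.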

Additional observations from a re-analysis of the deposited data

Results flagged for a closer look

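The ratio of the cycling share in iAdFASNKO to that in control lay on opposite sides of 1 in the 2 fractions, and the difference between the fractions was not tested. Over all cells the ratio was 0.872 in Lin+ and 1.35 in Lin-. Among T/NK/ILC-like cells it was 0.494 in Lin+ (21 of 818 against 16 of 308 cells) and 3.29 in Lin- (20 of 202 against 4 of 133 cells). With 1 library on each side, the genotype, the pool of mice and the run of the bead sort cannot be told apart.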

How the results depend on the processing

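Of 227 values computed under other settings, 209 stayed within the interval of the reported value or within 1.5 times the reported count. The other 18 did not. A change of direction was looked for only in ratios of cycling shares whose reported interval excluded 1. Those were the ratios of T/NK/ILC-like cells, and 0 of their values changed direction. No paired analysis was possible because each genotype is 1 pool of mice, which leaves a comparison between genotypes no pairs, and the fractions of a pool were not compared by a test. No replicate could be left out, since each group is 1 library. Thinning every cell to 2000 UMIs gave cycling shares of 0.982% in Lin+ control, 0.836% in Lin+ iAdFASNKO and 0.393% in Lin- control. It also gave 0.190% of progenitor-like cells in Lin+ control, 17.5% of T/NK/ILC-like cells in Lin- iAdFASNKO and a ratio of 9.45 for the latter over Lin- control. In Lin+ iAdFASNKO the share was 1.74% when 2 genes sufficed and 0.890% when 4 were required. In Lin- control the single myeloid-like cycling cell was lost when 4 genes were required (0 of 17) and after thinning (0 of 11), each a share of 0%. Between genotypes in Lin+, 143 genes were called higher and 268 lower in T/NK/ILC-like cells. A minimum of 50 UMIs gave 67 and 145, and leaving out the cell with most UMIs of each gene gave 175 lower. In myeloid-like cells 66 were called higher and 217 lower. A minimum of 10 UMIs gave 105 and 337, a minimum of 50 gave 33 and 85, and leaving out the top cell gave 18 higher. Higher minimums test fewer genes, and for the other settings the cause was not tested. The Lin- libraries held only 12 and 16 myeloid-like cells, so the shares there are imprecise.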

Other observations

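The near-identical replication-dependent H2A histone genes of chromosome 13, Hist1h2ap (21833026 to 21833507, minus strand, mm10) and Hist1h2ae (23570517 to 23571220, minus strand), were counted in different proportions in the 4 libraries. In cycling cells Hist1h2ap and Hist1h2ae had 632 and 214 UMIs in Lin+ control, a ratio of 2.95. They had 192 and 204 UMIs in Lin+ iAdFASNKO, a ratio of 0.941, and 187 and 236 UMIs in Lin- control, a ratio of 0.792. In Lin- iAdFASNKO they had 44 and 464 UMIs, a ratio of 0.0948. Lin- iAdFASNKO had the lowest ratio of the 4 libraries in the T/NK/ILC-like and in the progenitor-like cells alone as well. In T/NK/ILC-like cells the ratios were 2.84, 0.617, 0.704 and 0.0810 in the order Lin+ control, Lin+ iAdFASNKO, Lin- control, Lin- iAdFASNKO, and in progenitor-like cells 4.26, 2.88, 4.53 and 0.188. The other cells of the libraries had 182 and 62, 165 and 191, 26 and 25, and 7 and 42 UMIs of the 2 genes. Because the genes are near-identical copies, the counting could have split their reads differently, and the single values of Hist1h2ap and Hist1h2ae are uncertain for that reason. The cause of the difference between libraries was not tested.

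The imprinted growth-associated transcript H19, which is in none of the lists, stood higher in progenitor-like cycling cells, with 255 CPM against 10.8 CPM in other cells of the lineage. H19 had UMIs in 9 of 50 cells, and 66 of its 180 UMIs lay in 1 cell. Among genes lower in the same cells were Inmt, a methyltransferase gene, at a ratio of 0.0859 (0.0584 to 0.122), Igfbp3, a binding protein of insulin-like growth factors, at 0.0642 (0.0132 to 0.188), and Hsd11b1, which regenerates active glucocorticoid, at 0.158 (0.107 to 0.224). All 4 genes were chosen after their values were seen.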
